A study of Homo sapiens with 4 samples.

Results

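The genes described here are 10 markers and regulators of the epithelial-mesenchymal state, VIM, CDH1, CDH2, FN1, ZEB1, ZEB2, SNAI1, SNAI2, TWIST1 and KRT18, taken as the rows of the count table that carry these symbols. All 10 were present among 61806 genes. RNA was sequenced from 2 human cancer cell lines, MDA-MB-231, a breast cancer line, and MDA-MB-435, which the study treats as a melanoma line. Each line gave 1 control library and 1 library after 6 h of 10 µM CPYPP, a small-molecule inhibitor of DOCK proteins that the study used to induce paraptosis, a form of cell death marked by cytoplasmic vacuoles. The labels do not say what the control cells received, and their protocol text names MDA-MB-435 for every sample, so the line was taken from the sample's own title and cell line entry.

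Epithelial cells hold to each other through E-cadherin and build keratin filaments, whereas mesenchymal cells are loosely attached, use N-cadherin, build vimentin filaments and lay down fibronectin. The SNAI, ZEB and TWIST proteins are transcription factors known for moving cells from the first state toward the second, in part by binding E-box sequences near CDH1 and other epithelial genes. Cancer cell lines often hold a mixture of both programs, and MDA-MB-231 is widely used as a line with mesenchymal features.

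For every tested member but SNAI1, the difference between the control libraries of the lines was larger than any change with CPYPP that was tested. This difference was largest for ZEB1, CDH1, CDH2 and ZEB2. SNAI1 changed more with CPYPP in MDA-MB-231 than it differed between the controls. MDA-MB-231 held the mRNAs of CDH1 and ZEB1, which had 0 counts in both MDA-MB-435 libraries, while MDA-MB-435 held 76.8-fold more CDH2 and 4.97-fold more ZEB2. VIM and KRT18 were abundant in both lines. With CPYPP, SNAI1 was the sole member called in either line, at 4.64-fold of the control in MDA-MB-231 cells and 2.06-fold in MDA-MB-435 cells. It was 1 of 9 members tested in the first line and 1 of 7 in the second. Of all genes tested, 7.3% and 10.3% were called. SNAI1 counts were low, at 19 and 65 for MDA-MB-231 and 76 and 128 for MDA-MB-435. The MDA-MB-435 call was lost with scaling by total counts, at 1.96-fold. With a biological coefficient of variation assumed between replicates, that call was lost at 0.2 and the MDA-MB-231 call at 0.4. TWIST1 was at or near 0 throughout.

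Sequences that set ZEB1 and ZEB2 apart from the other members are shown first, because the lines held these related genes in opposite proportions. Their mRNAs are known targets of the miR-200 family of microRNAs, which are made in epithelial cells. The mature human sequences below are from RefSeq on GRCh38.p14, with the seed, bases 2 to 8, in capitals. The first 3 share a seed and the last 2 share another.
hsa-miR-200b-3p: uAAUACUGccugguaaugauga
hsa-miR-200c-3p: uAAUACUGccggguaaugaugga
hsa-miR-429: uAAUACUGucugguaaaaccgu
hsa-miR-200a-3p: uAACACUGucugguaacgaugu
hsa-miR-141-3p: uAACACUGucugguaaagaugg

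The DNA letters complementary to these seeds, CAGTATT and CAGTGTT, were searched on the transcript strand of the 3′ UTR of 1 GENCODE release 29 transcript per gene. ZEB1 held 8 matches in 1938 bases and ZEB2 held 9 in 5370 bases. At least as many matches as in ZEB1 occurred in 0.046% of 19572 genes scanned, and at least as many as in ZEB2 in 0.0255%. FN1 held 2, SNAI2 held 1, and VIM, CDH1, CDH2, SNAI1, TWIST1 and KRT18 held 0, against 25.2% of all scanned genes with at least 1. UTR length differs between genes, and among the 2226 UTRs within 20% of the length of that of ZEB1 the median was 0 matches and 0.0449% held at least as many. Among the 907 UTRs within 20% of the length of that of ZEB2 the median was 1 match and 0.221% held at least as many. Each of these shares counts the gene in question itself, so none of them could be 0. The following matches, in capitals with the bases before them, show 1 site of each seed in each gene, on GRCh38. The ZEB1 sites lie at chr10:31527618-31527639 and chr10:31528031-31528052 on the plus strand, and the ZEB2 sites at chr2:144389053-144389074 and chr2:144389237-144389258 on the minus strand.
ZEB1, match to the miR-200b, miR-200c and miR-429 seed: attgttttatcttatCAGTATT
ZEB1, match to the miR-200a and miR-141 seed: caaaatcatcagaatCAGTGTT
ZEB2, match to the miR-200b, miR-200c and miR-429 seed: cgcactaccatacatCAGTATT
ZEB2, match to the miR-200a and miR-141 seed: tgcaaaaattttgtaCAGTGTT

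**Figure D1:**
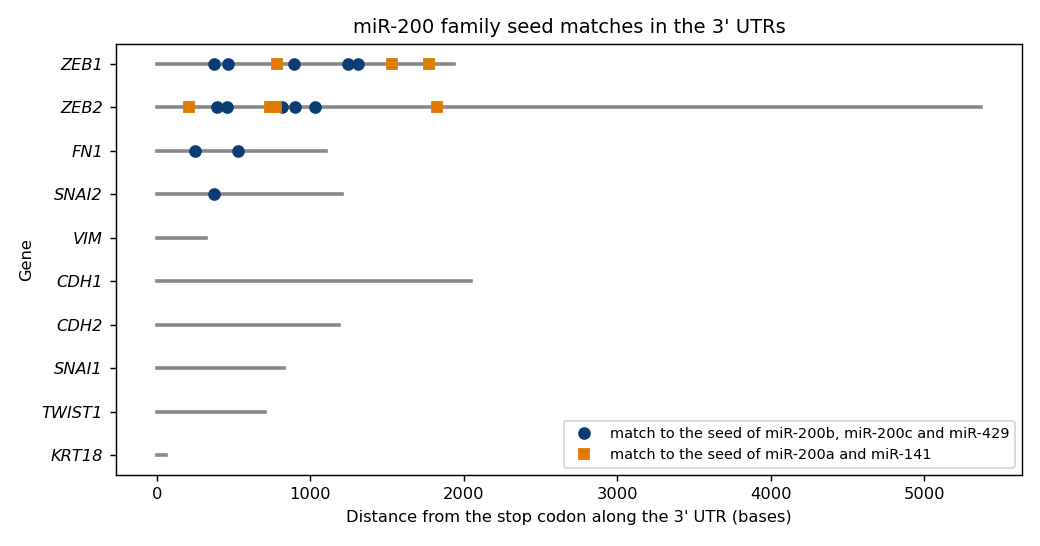
Each grey line is the 3′ UTR of 1 transcript per gene, drawn to scale in bases from the stop codon, and each symbol is a match to 1 of the 2 seeds of the miR-200 family. ZEB1 carries 8 matches and ZEB2 carries 9, against 0 to 2 in the other 8 genes.

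These matches are letters in reference transcripts. The mature microRNAs were not measured in these libraries. MIR200CHG, the host transcript of miR-200c and miR-141, had 0, 0, 2 and 0 counts in MDA-MB-231 control, MDA-MB-231 CPYPP, MDA-MB-435 control and MDA-MB-435 CPYPP, the order used for all lists of 4 counts below.

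Promoter windows of 300 bases, 250 before and 50 after each annotated start, came from RefSeq on GRCh38.p14 for VIM, CDH2, FN1, ZEB1 and ZEB2, and were searched for the E-box bound by SNAI and ZEB proteins, CACCTG, and its reverse complement CAGGTG. At least 1 copy occurred in 20.6% of all 35116 windows. The 7 windows of ZEB1 held 4 copies in 2 windows, and the 5 windows of VIM, CDH2, FN1 and ZEB2 held 0. One ZEB1 window, chr10:31318966-31319265 on the plus strand, held 3 copies, starting 242 and 85 bases before the start and 33 bases after it, a number reached by 0.635% of windows. It is shown with the E-boxes in capitals because ZEB1 is the regulator that was counted in 1 line and had 0 counts in the other. What set those counts to 0 was not tested.
ZEB1 promoter window: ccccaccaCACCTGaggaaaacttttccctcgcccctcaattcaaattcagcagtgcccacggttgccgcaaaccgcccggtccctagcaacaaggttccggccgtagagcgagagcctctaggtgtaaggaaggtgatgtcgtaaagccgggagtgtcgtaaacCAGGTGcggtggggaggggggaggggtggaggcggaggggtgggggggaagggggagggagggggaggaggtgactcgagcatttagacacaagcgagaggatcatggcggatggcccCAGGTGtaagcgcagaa

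The 4 libraries held 17196385 to 22663954 counts in genes. With 1 library per condition there was no replicate error. The test was an exact binomial test of a gene's counts in 2 libraries, two-sided, which compares those libraries and not the conditions, and its 95% Clopper-Pearson intervals cover counting error only. Levels are in counts-per-million units (CPM), scaled by TMM, a method that sets the bulk of genes equal between libraries. A gene was tested with at least 10 counts in 1 of the 2 libraries, and was called with a Benjamini-Hochberg adjusted p under 0.05 over all tested genes together with a fold change over 2. A count of 0 was set to 3 counts to give a bound. As a check of the labels, the melanocyte genes SOX10, S100B and DCT had 3031, 1055 and 658 counts in MDA-MB-435 control and 0, 0 and 1 in MDA-MB-231 control. The epithelial genes EPCAM and KRT19 had 387 and 3953 counts in MDA-MB-231 control and 2 and 4 in MDA-MB-435 control. Among the other epithelial markers, CDH1, KRT8, CLDN7 and CLDN4 were also higher in MDA-MB-231 control. KRT18 differed less, with 8212 and 5740 counts in the MDA-MB-231 and MDA-MB-435 controls. ESRP1 went the other way, with 0 and 21 counts. The pigment genes TYR, TYRP1, MLANA and PMEL were absent or low in both lines, at 0, 3, 8 and 34 counts in MDA-MB-231 control and 2, 10, 9 and 13 in MDA-MB-435 control, with PMEL called 2.77-fold higher in MDA-MB-231 against the label, and MITF, a melanocyte regulator, was at 1585 and 1405 counts in the MDA-MB-231 and MDA-MB-435 controls.

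**Figure D2:**
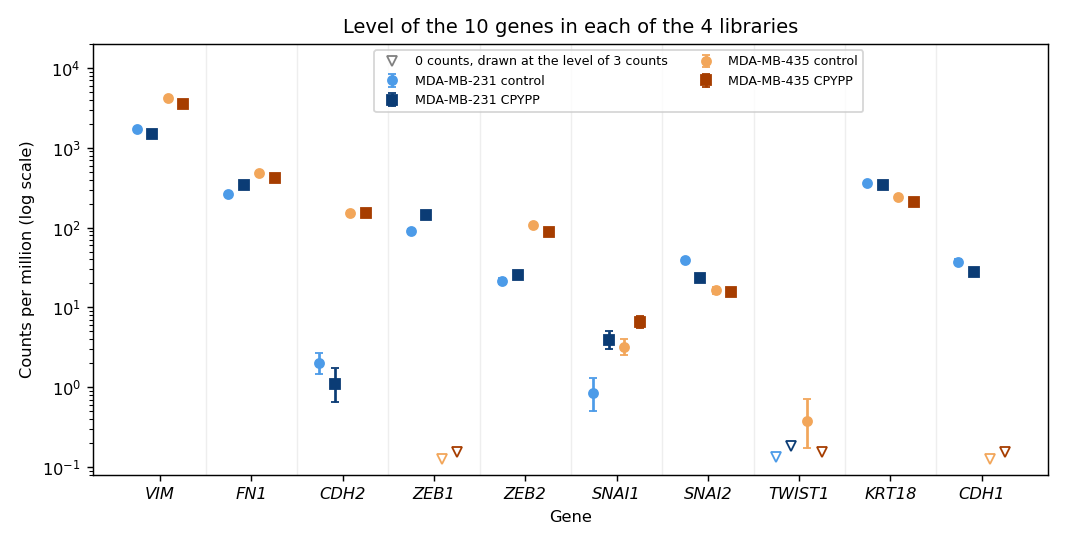
The y axis gives CPM on a log scale for each of the 10 genes in each library, with bars for the 95% interval of the count alone, and open triangles mark 0 counts drawn at the level of 3 counts. CDH1 and ZEB1 have triangles in both MDA-MB-435 libraries, and CDH2 sits at 2.01 and 1.09 CPM in MDA-MB-231 and at 154 and 151 in MDA-MB-435.

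The first comparison asked how the 2 lines differed in these genes without CPYPP. Of the 9 members tested, 3 were called higher and 4 lower in MDA-MB-231. Over all 18269 genes tested, 43.2% were called in this comparison, 20.6% higher and 22.6% lower, so a call between these lines was common. All 9 members passed the adjusted p irrespective of fold, as did 79.7% of all genes.

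The cadherins stood on opposite sides. CDH1 (ENSG00000039068, chr16:68737292-68835537, plus strand) encodes E-cadherin, the adhesion protein of epithelial junctions, and had 837, 464, 0 and 0 counts. The MDA-MB-231 libraries were at 37.4 and 28.1 CPM, and 0 counts in MDA-MB-435 allowed up to 0.127 CPM in the control and 0.155 CPM after CPYPP. CDH1 was thus at least 295-fold higher in the MDA-MB-231 control than in the MDA-MB-435 control, with an adjusted p of 1.18e-261 in the exact binomial test. CDH2 (ENSG00000170558, chr18:27932879-28177946, minus strand) encodes N-cadherin, the cadherin of many mesenchymal and neural cells, and had 45, 18, 3657 and 2918 counts. It was 76.8-fold higher in MDA-MB-435 control, with an interval of 57.3 to 106. Per transcript length, in transcripts-per-million units (TPM), CDH1 made up 96.3% of the summed level of the 2 cadherins in MDA-MB-231 control and 97.3% after CPYPP. In both MDA-MB-435 libraries its share was 0.

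The ZEB genes, which encode related zinc-finger repressors, were divided in the same manner. ZEB1 (ENSG00000148516, chr10:31318495-31529814, plus strand) had 2038, 2348, 0 and 0 counts and was at least 718-fold higher in MDA-MB-231 control. ZEB2 (ENSG00000169554, chr2:144364364-144521057, minus strand) had 480, 418, 2523 and 1726 counts and was 4.97-fold higher in MDA-MB-435 control, with an interval of 4.51 to 5.49. Every MDA-MB-231 library lay above every MDA-MB-435 library for ZEB1 and below it for ZEB2. ZEB1 made up 92.8% of the summed ZEB level in MDA-MB-231 control on the TPM scale and 94.4% after CPYPP. The table gives ZEB2 an exon length of 26151 bases, against 8650 for ZEB1, which lowers its TPM. MDA-MB-231 thus carried CDH1 mRNA together with that of ZEB1, which encodes a repressor of CDH1, and neither was detected in MDA-MB-435.

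The exact 0 of CDH1 and ZEB1 was shared with other genes. Of 5884 genes with at least 800 counts in MDA-MB-231 control, 42 had 0 counts in both MDA-MB-435 libraries, whereas 11 had a summed count of 1 and 13 of 2. In the reverse direction, 19 of 5996 genes were at 0 in both MDA-MB-231 libraries. The 42 genes included PRDX1, an antioxidant enzyme made by most cells, with 8711, 7879, 0 and 0 counts, a gene chosen after its values were seen. ZEB1-AS1, the antisense neighbour of ZEB1, had 181, 84, 0 and 0 counts. What set these counts to 0 was not tested.

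The SNAI factors also went opposite ways at baseline. SNAI1 (ENSG00000124216, chr20:49982980-49988886, plus strand) encodes Snail, and had 19, 65, 76 and 128 counts. It was 3.78-fold higher in MDA-MB-435 control, with an interval of 2.26 to 6.62. SNAI2 (ENSG00000019549, chr8:48917598-48921740, minus strand) encodes Slug, and had 884, 387, 388 and 303 counts. It was 2.41-fold higher in MDA-MB-231 control, with an interval of 2.14 to 2.72. With an assumed biological coefficient of variation between replicates of 0.4 the calls of SNAI1, SNAI2 and VIM in this comparison were lost. The MDA-MB-231 control stood apart from the other 3 libraries for both genes, with the lowest SNAI1 and the highest SNAI2. TWIST1 (ENSG00000122691, chr7:19020991-19117636, minus strand), a basic helix-loop-helix factor, had 0, 0, 9 and 0 counts and reached the minimum for testing in no comparison.

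The filament and matrix genes differed less than the cadherins and the ZEB genes. VIM (ENSG00000026025, chr10:17228241-17237593, plus strand), which encodes vimentin, had 38484, 24404, 98483 and 68113 counts and was 2.42-fold higher in MDA-MB-435 control, with an interval of 2.39 to 2.45. FN1 (ENSG00000115414, chr2:215360440-215436073, minus strand), which encodes the matrix protein fibronectin, had 5885, 5574, 11533 and 7992 counts and was 1.85-fold higher in MDA-MB-435 control, under the fold threshold. KRT18 (ENSG00000111057, chr12:52948871-52952906, plus strand), a keratin of simple epithelia, had 8212, 5653, 5740 and 4077 counts and was 1.51-fold higher in MDA-MB-231 control, also under the threshold. VIM was the highest and KRT18 the next of the 10 members in every library on the TPM scale. The VIM level was 2.78 times that of KRT18 in MDA-MB-231 control and 10.2 times in MDA-MB-435 control, and 2.56 and 9.91 times after CPYPP. KRT8, whose protein pairs with that of KRT18 in filaments, had 12813, 9549, 522 and 310 counts, so the partner differed 26.0-fold between controls where KRT18 differed 1.51-fold. KRT8 lies on the opposite strand and overlaps KRT18 by 1084 bases, and whether reads were counted by strand is not given in the sources used here. The 67 KRT18 pseudogene rows together held 16 to 34 counts per library, and how reads that match several such copies were counted was not examined.

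**Figure D3:**
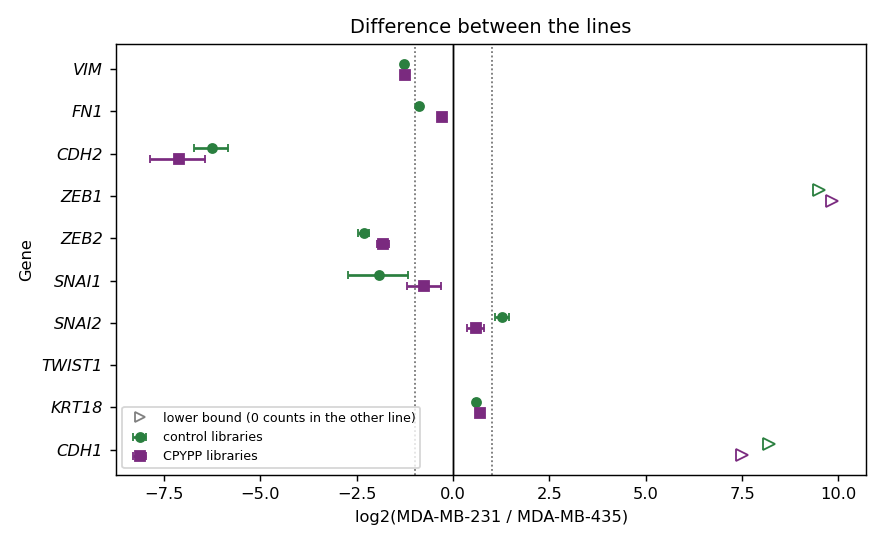
The x axis gives the log2 ratio of MDA-MB-231 over MDA-MB-435 for each gene in the control libraries and in the CPYPP libraries, with 95% counting intervals, open arrowheads for lower bounds and dotted lines at a fold of 2. CDH1 and ZEB1 lie far to the right and CDH2 far to the left in both, and SNAI1 and SNAI2 move inside the dotted lines after CPYPP.

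After CPYPP the same contrast called 2 of 9 members higher in MDA-MB-231, CDH1 and ZEB1, and 3 lower, VIM, CDH2 and ZEB2, where 40.9% of 17054 genes were called, 22.3% higher and 18.6% lower, and 78.4% passed the adjusted p at any fold. CDH1 was at least 181-fold higher and ZEB1 at least 917-fold higher in MDA-MB-231. CDH2 was 138-fold higher in MDA-MB-435, with an interval of 87.4 to 234. SNAI1 and SNAI2 no longer passed the fold threshold, with log2 ratios of MDA-MB-231 over MDA-MB-435 of -0.75 and 0.58. An edgeR quasi-likelihood fit of line and treatment was made over the 4 libraries, with 1 residual degree of freedom per gene. A gene's spread there is the difference between the responses of the lines, moderated by the spread of all genes. By its test the 9 members tested all differed between lines. The adjusted p ran from 2.13e-09 for CDH2 and 2.18e-09 for ZEB1 to 0.0171 for SNAI1. Values this small rest on the spread borrowed from other genes. CDH1 and ZEB1, at 0 counts in both MDA-MB-435 libraries, had no second response. In that fit 62.9% of 16801 genes passed.

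The second comparison asked how the genes changed with CPYPP within each line. In MDA-MB-231, 1 of 9 members tested was called higher and 0 lower, against 7.3% of 16441 genes called in all, 4.15% higher and 3.16% lower. For MDA-MB-435, 1 of 7 members tested was called higher and 0 lower, against 10.3% of 16527 genes, 2.72% higher and 7.55% lower. Irrespective of fold, 8 of 9 members passed the adjusted p in MDA-MB-231 cells and 5 of 7 in MDA-MB-435 cells, where 45.3% and 51.3% of all genes did. On the log2 scale the members' median change was -0.10 in the MDA-MB-231 pair and -0.20 in the other line, beside -0.02 and -0.09 for all genes tested. The CPYPP and the baseline comparisons share the control libraries, so the values of SNAI1 and SNAI2 in both rest on the same MDA-MB-231 control.

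SNAI1 was the called gene in both lines. From 19 to 65 counts, or 0.848 to 3.93 CPM, it rose 4.64-fold in MDA-MB-231, with an interval of 2.75 to 8.19 and an adjusted p of 8.33e-10 in the exact binomial test. From 76 to 128 counts, or 3.21 to 6.61 CPM, it rose 2.06-fold in MDA-MB-435, with an interval of 1.54 to 2.77 that holds the threshold of 2, and scaling by total counts put the change at 1.96-fold, which is not called. In the edgeR quasi-likelihood fit over both lines the common change of SNAI1 was 1.53 ± 0.391 (SE) on the log2 scale with an adjusted p of 0.0421, where 7.23% of 16801 genes passed. As a share of the summed SNAI1 and SNAI2 levels in TPM, SNAI1 went from 3.97% to 24.4% in MDA-MB-231 and from 27.4% to 44.8% in MDA-MB-435. Within each line the CPYPP library had the larger share, and the MDA-MB-231 CPYPP library stayed below the MDA-MB-435 control. With a biological spread assumed between replicates, the call was lost at a coefficient of variation of 0.4 in MDA-MB-231 and of 0.2 in MDA-MB-435.

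ZEB1, ZEB2 and SNAI2 did not pass the fold threshold, and TWIST1, with 9 and 0 counts in MDA-MB-435, had too few counts to be tested. ZEB1 was at 91.0 CPM in the MDA-MB-231 control and 142 CPM after CPYPP, a ratio of 1.56 with an interval of 1.47 to 1.66. Its common change in the quasi-likelihood fit of edgeR had an adjusted p of 0.0694, with both MDA-MB-435 libraries at 0. SNAI2 was at 39.5 and 23.4 CPM in MDA-MB-231, a ratio of 0.593 with an interval of 0.525 to 0.669. In MDA-MB-435 SNAI2 was at 16.4 and 15.7 CPM, a ratio of 0.956 whose interval of 0.820 to 1.11 includes 1. ZEB2 had a ratio of 1.18 in MDA-MB-231 cells and 0.837 in MDA-MB-435 cells.

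No cadherin, filament or matrix member passed the fold threshold with CPYPP. VIM had ratios of 0.859 in MDA-MB-231 cells and 0.846 in MDA-MB-435 cells, and KRT18 ratios of 0.933 and 0.869. CDH1 in MDA-MB-231 was at 37.4 and 28.1 CPM, a ratio of 0.751 with an interval of 0.669 to 0.843. CDH2 in MDA-MB-435, where it was abundant, had a ratio of 0.976 with an interval of 0.930 to 1.03, which crossed 1 under other scalings. In MDA-MB-231, CDH2 had 45 and 18 counts and a ratio of 0.542 with an adjusted p of 0.0631 in the exact binomial test. FN1 had a ratio of 1.28 in MDA-MB-231 cells and 0.848 in MDA-MB-435 cells.

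**Figure D4:**
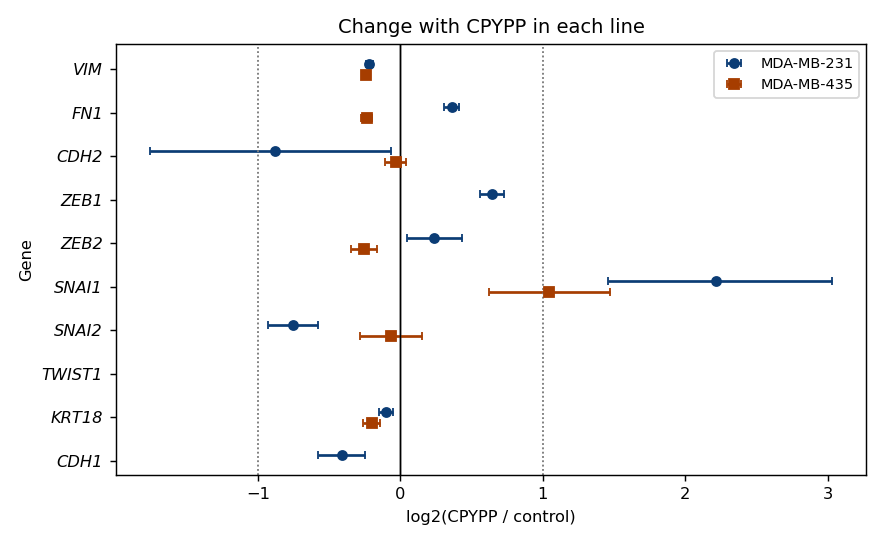
The x axis gives the log2 ratio of the CPYPP library over the control library in each line, with 95% counting intervals and dotted lines at a fold of 2, and genes with too few counts are left blank. SNAI1 lies past the right dotted line in both lines, at 2.21 and 1.04, and FN1 and ZEB2 lie on opposite sides of 0.

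The difference between the responses of the lines could be given for the 7 members with counts in all 4 libraries, with no test since each response is 1 pair of libraries. The change in MDA-MB-231 minus that in MDA-MB-435 was 1.17 for SNAI1 (95% counting interval 0.33 to 2.01), 0.60 for FN1 (0.53 to 0.66) and 0.50 for ZEB2 (0.29 to 0.70) on the log2 scale. It was -0.69 for SNAI2 (-0.96 to -0.41) and -0.85 for CDH2 (-1.64 to -0.06). The differences of KRT18, 0.10 (0.03 to 0.18), and VIM, 0.02 (-0.01 to 0.05), were small enough to depend on the scaling. With DESeq2 size factors that of KRT18 was 0.03 (-0.05 to 0.10) and that of VIM turned to -0.05 (-0.08 to -0.03).

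Other genes of these programs were read from wider lists. Over all genes tested at baseline, 20.6% were called higher and 22.6% lower in MDA-MB-231, the shares to set beside the calls of each list. Among 18 epithelial junction and keratin genes tested at baseline, 14 were called higher and 0 lower in MDA-MB-231, with a median log2 difference of 4.32 beside -0.03 over all genes. The desmosome gene DSP had 3323 against 0 and was at least 1171-fold higher, and KRT19 had 3953 against 4 and was 1045-fold higher. DSP is 1 of the 42 genes described above as at 0 counts in both MDA-MB-435 libraries. Of 7 epithelial transcription and splicing factors, 4 were called higher and 1 lower, among them the splicing factor ESRP2 (64.2-fold) and the ETS factor EHF (32.2-fold) higher in MDA-MB-231. ESRP1, the factor called lower, had 0 counts in both MDA-MB-231 libraries and 21 and 11 in MDA-MB-435, and was named after its values were seen.

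The mesenchymal matrix and adhesion genes did not lie on 1 side. Of 28 tested, 12 were called higher and 4 lower in MDA-MB-231, with a median of 0.36 on the log2 scale, beside 20.6% higher and 22.6% lower over all genes. The secreted protein gene FSTL1 (611-fold), the collagen gene COL6A2 (at least 239-fold) and the collagen cross-linking enzyme gene LOX (86.9-fold) were higher in MDA-MB-231. SPARC (543-fold), the matrix glycoprotein gene TNC (152-fold) and the collagen gene COL5A2 (98.0-fold) were higher in MDA-MB-435. CDH2 and VIM were therefore on the same side as SPARC and TNC, and ZEB1 was on that of FSTL1 and LOX.

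The other cadherins divided too. Of 9 tested, 5 were called higher and 4 lower in MDA-MB-231, beside 20.6% higher and 22.6% lower over all genes. CDH11, the cadherin of osteoblasts and fibroblasts, had 3366 counts against 25 (142-fold), CDH4 had 1248 against 5 (264-fold), and CDH24 had 312 against 108 (3.06-fold). CDH19, a neural crest cadherin, had 1 count in MDA-MB-231 control and 216 in MDA-MB-435 control, a ratio of 204 with an interval of 36.3 to 8104, and CDH18 was 21.9-fold higher in MDA-MB-435. MDA-MB-231 thus held mRNA of a mesenchymal cadherin, CDH11, at 45.0 TPM beside CDH1 at 24.4 TPM. Catenins link cadherins to actin or to signalling, and the catenin list also held CTNNBIP1, which is not itself a catenin gene. Of the 5 genes on that list, JUP (7.93-fold), CTNNA1 (2.23-fold) and CTNND1 (2.18-fold) were called higher in MDA-MB-231. CTNNB1 (1.91-fold) and CTNNBIP1 (1.17-fold) were not called. JUP also counts among the junction genes.

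Among 13 other transcription factors linked to the transition, 4 were called higher and 3 lower in MDA-MB-231, where 43.2% of all genes were called. SOX9 (at least 641-fold) and FOXQ1 (at least 481-fold) were higher in MDA-MB-231, and PRRX1 (74.7-fold), TCF4 (64.9-fold) and TCF12 (2.07-fold) in MDA-MB-435. SOX9 and FOXQ1 are also among the 42 genes at 0 counts in both MDA-MB-435 libraries. Of 14 genes of TGF-beta input, which induces SNAI and ZEB genes in many epithelia, 4 were called higher in MDA-MB-231 and 0 lower, near the background of 20.6% higher over all genes, among them TGFBR3 (22.5-fold), TGFB1 (7.90-fold) and TGFB2 (4.09-fold). Of 9 partners that SNAI and ZEB proteins recruit to repress genes, RCOR1 (2.93-fold) and SUZ12 (2.60-fold) were called higher in MDA-MB-231 and 0 lower, a share close to the same 20.6%. Of the 5 genes that mark or degrade SNAI proteins, the ubiquitin ligase gene BTRC was 2.60-fold higher in MDA-MB-231, FBXL14 was 6.66-fold and the kinase gene GSK3B 2.01-fold higher in MDA-MB-435, and FBXL5 (1.14-fold) and FBXO11 (1.09-fold) were not called. Of 6 other intermediate filament genes, NES (11.1-fold) and SYNM (7.54-fold) were higher in MDA-MB-435, and 1 was called higher in MDA-MB-231.

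**Figure D5:**
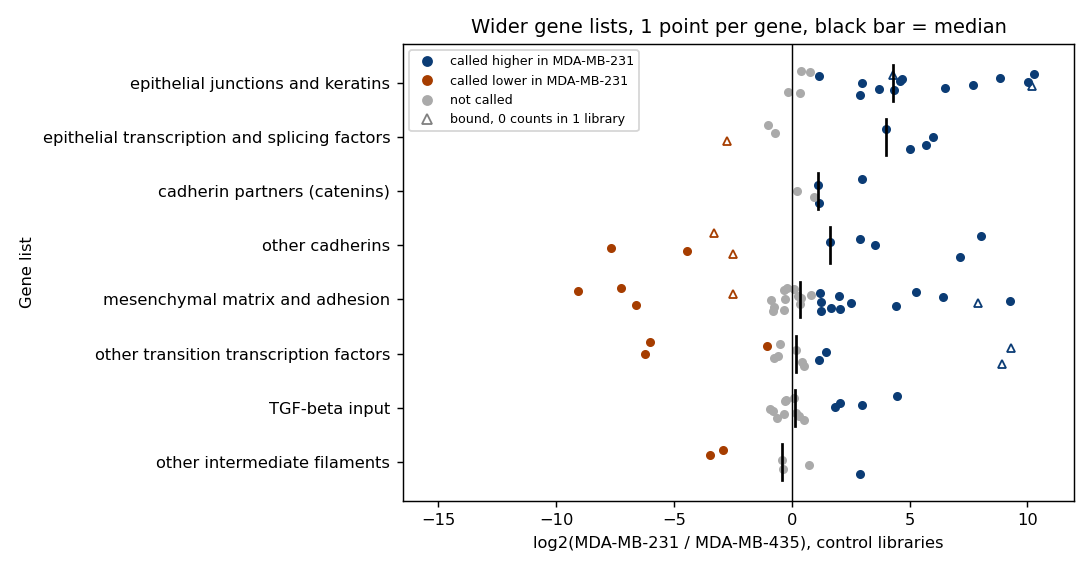
Each point is a gene tested in the control libraries, placed by its log2 ratio of MDA-MB-231 over MDA-MB-435, and the black bar is the median of its list. The epithelial junction and keratin genes lie to the right with a median of 4.32, and the mesenchymal matrix genes spread to both sides around a median of 0.36.

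With CPYPP, where 7.3% of all genes were called in MDA-MB-231 and 10.3% in the other line, the lists gave the following calls. In MDA-MB-231 the epithelial factor GRHL1 rose from 49 to 108 counts (2.99-fold), EHF fell from 1157 to 186 (4.59-fold) and FOXQ1 fell from 1364 to 333 (3.02-fold). Of the 27 matrix and adhesion genes, 14 TGF-beta input genes, 9 repressor partners, 5 catenin list genes and 5 SNAI turnover genes tested in MDA-MB-231, 0 were called, a count to be read against that background. In MDA-MB-435 the SMAD inhibitor gene SMAD6 fell 2.39-fold from 650 to 222 counts, the lamin gene LMNB1 fell 2.12-fold from 2814 to 1085, and SOX10 fell 3.50-fold from 3031 to 707. VIM-AS1, on the opposite strand of VIM, fell 2.43-fold in MDA-MB-435 from 508 to 171 counts, beside a VIM ratio of 0.846. Of the 9 junction and keratin genes tested in MDA-MB-435 only CLDN4, a tight junction gene named after its values were seen, was called, and fell 2.48-fold from 79 to 26 counts. Of 5 other called list genes, all with fewer than 100 counts and named after their values were seen, CDH3 was called higher in MDA-MB-231 and CDH20 and PRRX1 lower, and CDH23 was called higher in MDA-MB-435 and COL1A1 lower.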

How the data were processed

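Gene-level counts were deposited by the authors for 4 libraries, raw and not normalised, with gene positions and exon lengths. Per the labels, reads were processed with cutadapt 1.9.1, HISAT2 2.2.1 and HTSeq 0.6.1 and compared with DESeq2. The labels name GRCh37.p13, but 58241 of the 58254 gene IDs shared with GENCODE release 29 overlap their GRCh38 position, so coordinates are given as GRCh38. The labels do not say that samples are separate cultures.

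Libraries of 17196385, 19489282, 22359735 and 22663954 counts were scaled by TMM factors (edgeR 4.0.16, R 4.3.3) from all 4 libraries. Pairs of libraries were compared by an exact binomial test (scipy 1.17.1) with Benjamini-Hochberg adjustment over all genes with at least 10 counts in 1 of them, and genes were called at an adjusted p under 0.05 and a fold over 2, the study's thresholds. Line and treatment were also fitted together with edgeR's quasi-likelihood test, with 1 residual degree of freedom and a spread moderated across all genes. Scripts were tested on simulated data. TPM used the deposited exon lengths. Alternatives changed the scaling, filters, thresholds and test, DESeq2 1.42.0 included.

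All 10 members are named. Of each wider list, up to 3 genes called in each direction with the largest change and at least 100 counts are named, and every gene of lists of 5 or fewer. Some genes that this rule names are not reported here. The members and lists were chosen with earlier results of these data known.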

Additional observations from a re-analysis of the deposited data

Results flagged for a closer look

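The following genes had CPYPP changes of opposite sign in the 2 lines, with each counting interval on 1 side of 0, and the difference was not tested, since each line gave 1 pair of libraries. FN1 changed by 0.36 on the log2 scale in MDA-MB-231 and by -0.24 in MDA-MB-435. ZEB2 changed by 0.24 in MDA-MB-231 and by -0.26 in MDA-MB-435. CLDN4, with 988 control and 1443 CPYPP counts in MDA-MB-231, changed by 0.98 there and by -1.31 in MDA-MB-435. SYNM, an intermediate filament gene, changed by 0.16 in MDA-MB-231 and by -0.49 in MDA-MB-435. The values for FN1, ZEB2 and SYNM were under the fold threshold in both lines.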

How the results depend on the processing

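No paired analysis was possible because each condition had 1 library and the labels give no replicate numbers, except that the joint fit, with line as a block, compared CPYPP with control within each line. With 1 library per condition none was left out. SNAI1 in MDA-MB-231 lost its call when a biological coefficient of variation of 0.4 was assumed (0 members called higher), and a fold threshold of 1.5 called 2 higher, with ZEB1, and 1 lower, SNAI2. In MDA-MB-435 SNAI1 was not called, leaving 0, with total counts, with an assumed coefficient of 0.2 or 0.4, or with a fold over 4, and testing genes with at least 1 count called 1 member lower, TWIST1. At baseline, requiring 10 counts in both libraries removed CDH1 and ZEB1 and left 1 called higher, and a coefficient of 0.4 or a fold over 4 left 2 called lower, CDH2 and ZEB2, and 2 called higher, CDH1 and ZEB1, so VIM, SNAI1 and SNAI2 lost their calls. For the common CPYPP effect, 2 members passed with upper quartile scaling or without the filter (SNAI1 and ZEB1) or with DESeq2 (SNAI1 and VIM), and 0 without the line as a block, where edgeR called 0 genes and 167 had an unadjusted p under 0.05. Upper quartile scaling moved every change in MDA-MB-435 by 0.11 on the log2 scale, and the sign of changes near 0 turned: CDH2 in MDA-MB-435 became 0.0097 (DESeq2 size factors), 0.073 (upper quartile) and 0.041 (factors from the 2 libraries alone, an alternative chosen after seeing the data), SNAI2 there 0.042 and 0.010 under the latter pair, and in the common effect FN1 became -0.0065 (total counts) and ZEB2 0.060 (upper quartile). Of the differences between the lines' responses, that of VIM turned from 0.022 to -0.055 (DESeq2 size factors), -0.024 (upper quartile) and -0.043 (factors from the 2 libraries alone), and the interval of KRT18 came to include 0 under the same 3 scalings, all chosen for this comparison after seeing the data. The numbers of members called, or with an interval without 0, and the ratio of VIM to KRT18 stayed within 1.5 times in 77 of 92 recomputations, which does not say that the same members were counted. The ratio of VIM to KRT18 within a library is the same under any scaling, so its recomputations could not differ. A count of 0 members in both settings was also taken as unchanged, so the 77 is not a measure of how stable the results are.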
